A study of Mus musculus with 62 samples.

Results

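The genes described here are the heat shock proteins and DnaJ proteins of mouse soleus muscle, chosen by symbol: every row of the expression table that began with Hsp90, with Hsp and a family letter (a, b, d, e or h) and a number, or with Dnaj, leaving out 11 pseudogene rows that were listed at 0 TPM in every library. The rule took 72 of the 47643 genes in the table. RNA from soleus, a slow hindlimb muscle, had been sequenced as stranded mRNA libraries from female mice aged 2 months. The mice had been given cachectic melanoma cells (CAC; cachexia is the wasting of muscle and fat seen with some tumours), non-cachectic melanoma cells (NCAC) or a mock treatment (Con). Soleus was collected 2, 4, 6 and 8 weeks later, with 5 libraries in each of the 12 groups except CAC at 8 weeks, which had 7, so that there were 62 libraries. No group carried an engineered allele by the labels, which name neither the melanoma lines nor how many lines were used. The labels disagree on the host: the sample entries give C57BL6/J and the design text NCI Ath/nude, an athymic strain that lacks most T cells, and a protocol sentence names LLC cells, so the strain of every group is not settled. The libraries within a group are biological replicates, by the labels.

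Chaperones bind unfolded protein and let it fold, move or be degraded. HSP70 proteins (Hspa) do this in cycles of ATP hydrolysis that DnaJ proteins start, by delivering the client and triggering hydrolysis, and that HSP110 proteins (Hsph1, Hspa4) reset by exchanging the nucleotide. HSP90 proteins finish many signalling clients, the mitochondrial chaperonin of Hspd1 and its lid Hspe1 encloses its clients, and small heat shock proteins (Hspb) hold unfolding protein without ATP. Muscle is rich in small heat shock proteins, which sit on the sarcomere and its filamin and desmin scaffold. Heat shock factors switch on the inducible genes (Hspa1a, Hspa1b, Hspb1 and others) through repeats of a short element, and unfolded protein in the endoplasmic reticulum (ER) switches on another set, among them Hspa5 (BiP), Hsp90b1, Dnajb9 and Dnajc3, through other elements.

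The promoters of 6 members are shown because the results turn on these genes and because the elements that heat shock and ER stress factors read can be seen in them. Promoter windows were taken from RefSeq on GRCm38.p6, which has the coordinates of mm10, and matched 58 of the 72 members with 75 windows. The 250 bases before the start are printed, on the strand of the gene, for Hspa1a (chr17:34972157-34972406, minus strand), Hspb1 (chr5:135887669-135887918, plus), Hspe1 (chr1:55087898-55088147, plus), the first by position of the windows of Dnajb6 (chr5:29735648-29735897, plus), Dnajc3 (chr14:118937682-118937931, plus) and Hspb7 (chr4:141420529-141420778, plus). Capitals mark the searched motifs: the heat shock element cores GAANNTTC and TTCNNGAA, each its own reverse complement, and the ER stress element, which is CCAAT, any 9 bases and CCACG, on either strand.
Hspa1a: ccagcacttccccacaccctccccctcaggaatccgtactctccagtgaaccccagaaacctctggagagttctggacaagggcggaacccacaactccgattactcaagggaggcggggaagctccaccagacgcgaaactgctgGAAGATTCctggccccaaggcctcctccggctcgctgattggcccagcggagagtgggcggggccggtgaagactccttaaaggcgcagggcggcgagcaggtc
Hspb1: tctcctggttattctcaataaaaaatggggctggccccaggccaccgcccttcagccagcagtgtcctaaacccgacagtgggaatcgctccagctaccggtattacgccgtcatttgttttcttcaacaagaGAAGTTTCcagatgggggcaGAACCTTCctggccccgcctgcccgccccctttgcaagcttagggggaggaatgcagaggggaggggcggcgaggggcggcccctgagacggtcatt
Hspe1: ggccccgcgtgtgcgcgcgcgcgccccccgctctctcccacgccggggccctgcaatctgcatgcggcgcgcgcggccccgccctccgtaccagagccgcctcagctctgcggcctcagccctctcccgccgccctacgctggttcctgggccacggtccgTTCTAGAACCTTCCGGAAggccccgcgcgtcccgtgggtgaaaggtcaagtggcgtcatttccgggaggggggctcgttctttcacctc
Dnajb6: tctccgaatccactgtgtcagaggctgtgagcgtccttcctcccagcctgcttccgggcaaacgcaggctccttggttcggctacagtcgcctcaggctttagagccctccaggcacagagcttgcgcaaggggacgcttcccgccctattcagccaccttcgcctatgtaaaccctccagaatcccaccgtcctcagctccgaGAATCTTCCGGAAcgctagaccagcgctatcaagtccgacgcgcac
Dnajc3: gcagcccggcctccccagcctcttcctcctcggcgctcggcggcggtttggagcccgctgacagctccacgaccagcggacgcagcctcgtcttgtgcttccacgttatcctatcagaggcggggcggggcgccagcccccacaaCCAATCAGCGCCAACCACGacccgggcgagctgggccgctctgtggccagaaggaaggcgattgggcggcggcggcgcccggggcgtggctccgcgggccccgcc
Hspb7: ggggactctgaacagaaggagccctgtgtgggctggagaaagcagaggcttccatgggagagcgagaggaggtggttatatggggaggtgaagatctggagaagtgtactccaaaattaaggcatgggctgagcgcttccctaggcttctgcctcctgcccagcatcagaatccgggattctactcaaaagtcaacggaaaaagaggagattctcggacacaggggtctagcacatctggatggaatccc
Hspb1 held a pair of separate GAANNTTC cores and Hspa1a 1. The cores in Hspe1 and in Dnajb6 overlapped each other, so that 1 run of capitals holds 3 cores in Hspe1 and 2 in Dnajb6. Dnajc3 held the ER stress element and no heat shock core, and Hspb7, the most abundant member, held none of the 3 motifs in this window.
Over the whole window, which also takes 50 bases after the start, GAANNTTC stood in 14 of the 58 members with a window, against 9.04% of the 27025 genes in the promoter table. TTCNNGAA stood in 6 of them, against 9.6% of all genes, and either core in 16, against 17% of all genes. The ER stress element stood in 3 members, Dnajc3, Hsp90b1 and Hspa5, against 0.137% of all genes. A match describes these letters and not a bound site.

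By level, measured as TPM (a gene's share of the transcripts of a library, corrected for length and scaled to a fixed total), the small heat shock proteins led. Hspb7, a small heat shock protein of heart and skeletal muscle, averaged 2225 TPM over the 62 libraries and Hspb6 1726 TPM. Hsp90ab1, the constitutive cytosolic HSP90, averaged 928 TPM, Hspa8, the constitutive HSP70, 663 TPM and Hspb1 (HSP25) 558 TPM. At the other end of the tested members Hspa4l, an HSP110 relative, averaged 2.68 TPM. The members together took 1.18% of all TPM in CAC, 0.96% in NCAC and 0.90% in Con at 6 weeks. Small heat shock proteins alone took 0.72%, 0.55% and 0.51% there. The summed levels of all members overlapped, at 9889 to 14168 TPM in CAC and 8051 to 10201 TPM in Con. At 8 weeks the members took 0.78% in CAC, 0.67% in NCAC and 0.77% in Con. The test for differences covered genes with at least 1 TPM in at least 5 libraries, which left 63 members of 13529 genes: 3 HSP90, 14 HSP70 and HSP110, 7 small heat shock proteins, the 2 chaperonin genes and 4, 9 and 24 DnaJ proteins of the A, B and C classes. The 9 members below that mark were Dnajb3, Dnajb7, Dnajb8, Dnajb13, Dnajc5b, Dnajc5g, Dnajc6, Dnajc22 and Hspb9, of which Dnajb3 reached the highest value, 1.496 TPM in a single library.

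Spread between libraries of the same group differed among the members. The SD of log2(TPM + 1) within a group had a median over the groups of 0.55 for Hspa1a, 0.44 for Hspb1, 0.43 for Hspa1b and 0.34 for Hspb7, the 4 highest of the 63. Hspa9, the mitochondrial HSP70, had the lowest at 0.07. The median over the tested members was 0.15 and that over all tested genes 0.16. Hspa1a and Hspa1b lie 9951 bases apart on chromosome 17 and their coding sequences are 99.43% identical, so the split of reads between them is uncertain. Hspa1l, their neighbour, is 82.69% identical to Hspa1a over its coding sequence.

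Libraries differed in ways that touch these genes. The soleus markers Myh7, Myl2, Myl3, Tnnt1, Tnni1 and Tnnc1 were present in every library, Myh7 at 453 TPM or more. Myh4, the fast IIB myosin that soleus nearly lacks, was at 500 TPM or more in 3 libraries: CAC replicate 4 at 2 weeks, NCAC replicate 3 at 6 weeks and CAC replicate 6 at 8 weeks. The 8-week libraries differed from the earlier ones in every treatment, so week and anything else that set those libraries apart cannot be told apart. In bulk RNA, fewer cells of a type and less RNA per cell cannot be told apart. TPM does not carry the number of reads, which stays unknown for every value. Fold changes are differences of log2(TPM + 1), given with their standard error (SE). Each adjusted p is from limma with Benjamini-Hochberg adjustment over all tested genes, with 0.05 as the mark below which a gene passed.

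No member passed at 2 or 4 weeks in any of the comparisons between treatments. By limma 0.0% of all tested genes passed for CAC against Con at 2 weeks, 0.0296% for CAC against NCAC and 0.00739% for NCAC against Con. An unadjusted p under 0.05 was found for 6, 11 and 9 of the 63 members, against 1260, 2356 and 1616 of the 13529 tested genes. At 4 weeks the shares that passed were 0.155%, 0.2% and 0.0%. There 8, 9 and 0 members had an unadjusted p under 0.05, against 2222, 2967 and 468 of all tested genes. The highest fold changes of the members in CAC against Con at 4 weeks were those of Hspa1b, Hspa1a and Hspb1. A list of 10 heat-inducible members, set by hand, had a median of 0.12 (0.05 rescaled to a common median). It held Hspa1a, Hspa1b, Hsph1, Hsp90aa1, Dnaja1, Dnajb1, Dnajb4, Hspb1, Hspa4l and Hspa8, of which Hspa8 is constitutive. Hspa1b stood at 61.7, 37.5, 32.3, 34.7 and 34.9 TPM in CAC and at 18.5, 14.6, 27.8, 14.3 and 30.5 TPM in Con. The groups did not overlap, and the log2 fold change was 0.92 (SE 0.24, adjusted p = 0.153). Hspa1a stood at 68.5, 77.5, 45.9, 43.3 and 42.0 TPM in CAC and at 22.3, 19.9, 35.7, 30.1 and 47.4 TPM in Con. One Con library lay within the CAC range (0.84, SE 0.25, adjusted p = 0.184). Hspb1 averaged 847 ± 312 TPM in CAC and 503 ± 137 TPM in Con (SD, n = 5 each; 0.73, SE 0.24, adjusted p = 0.211), with CAC replicate 2 at 1393 TPM and the other CAC libraries at 608 to 783 TPM. Groups that did not overlap were found for 3 of the 63 members: Hspa1b and the ER co-chaperone Dnajb11, higher in CAC, and Dnajc28, lower. Of all tested genes 4.28% did not overlap in the same comparison. Hspb7 was at 2739 TPM on average in CAC and 2283 TPM in Con at 4 weeks, with overlapping groups.

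At 6 weeks chaperone genes passed in both directions between cachectic and mock muscle, at shares near those of all tested genes. Of the 63 members 16 were higher and 2 lower in CAC than in Con, which is 28.6% of them, against 25.7% of all tested genes. By direction 25.4% of the members and 21.8% of all tested genes were higher, and 3.17% and 3.87% lower. The median log2 fold change was 0.20 over the members and 0.16 over all tested genes. The HSP70 genes Hspa1a, Hspa2, Hspa1l and Hspa8 were higher (4 of 14 in that class), as were Hspb7 among the 7 small heat shock proteins, 4 of 9 DnaJ B genes and 7 of 24 DnaJ C genes. The lower genes were Hspb3 and Hspd1, and none of the 3 HSP90 or 4 DnaJ A genes passed. The HSP90 genes Hsp90ab1, Hsp90aa1 and Hsp90b1 had log2 fold changes of 0.40, 0.30 and 0.27 with adjusted p of 0.0672, 0.0944 and 0.0904.

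Among the HSP70 genes, Hspa1a, the stress-inducible HSP70, stood at 80.8, 51.9, 82.1, 71.7 and 54.0 TPM in CAC and at 40.4, 70.7, 28.0, 30.2 and 23.5 TPM in Con at 6 weeks. All CAC libraries lay above the mean of Con, and Con replicate 2 lay within the CAC range. The log2 fold change was 0.89 (SE 0.25, adjusted p = 0.0250), and the call was lost without CAC replicate 1 or 4 or without Con replicate 3, 4 or 5 (adjusted p up to 0.0624). Its near-copy Hspa1b averaged 42.7 ± 12.7 TPM in CAC and 35.8 ± 18.5 TPM in Con (SD, n = 5 each) and did not pass (0.33, SE 0.29, adjusted p = 0.400). Hspa2, an HSP70 best known from sperm cells, stood at 18.3, 13.7, 13.9, 18.2 and 15.2 TPM in CAC and at 11.0, 11.5, 10.7, 10.9 and 10.4 TPM in Con. The groups did not overlap (0.49, SE 0.10, adjusted p = 0.00433). Hspa1l rose by 0.49 (SE 0.13, adjusted p = 0.0180), at 86.8 ± 10.4 TPM in CAC and 61.9 ± 12.02 TPM in Con (SD, n = 5 each). Hspa8 was at 868, 885, 641, 792 and 682 TPM in CAC and at 613, 602, 641, 613 and 615 TPM in Con. One Con library was level with the lowest CAC library (0.31, SE 0.10, adjusted p = 0.0356), and the call was lost without any 1 library other than CAC replicate 3 or 5 (adjusted p up to 0.0831). The nucleotide exchange factors Hsph1 (0.36, SE 0.13, adjusted p = 0.0559) and Hspa4 (0.23, SE 0.09, adjusted p = 0.0892) did not pass, and the ER chaperone Hspa5 and the mitochondrial Hspa9 had log2 fold changes of -0.03 and -0.08.

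Among the small heat shock proteins, Hspb7 stood at 4919, 3397, 3190, 4092 and 2832 TPM in CAC and at 2885, 1661, 1707, 2785 and 1617 TPM in Con at 6 weeks. Con replicate 1 lay above the lowest CAC library, and the other Con libraries lay below all of CAC. The log2 fold change was 0.81 (SE 0.20, adjusted p = 0.0149). Hspb1 was at 1175, 798, 468, 875 and 624 TPM in CAC and at 482, 810, 396, 561 and 363 TPM in Con, overlapping groups that did not pass (0.58, SE 0.25, adjusted p = 0.0972). Hspb3, a muscle small heat shock protein that pairs with Hspb2, went the other way. It stood at 39.5, 48.4, 53.6, 58.7 and 50.9 TPM in CAC and at 85.0, 55.3, 66.0, 73.5 and 60.8 TPM in Con, with 1 CAC library inside the Con range (-0.43, SE 0.13, adjusted p = 0.0303), and lost the call without CAC replicate 1 or 2 or Con replicate 1, 3 or 4 (adjusted p up to 0.0711). Hspb2, Hspb6 and Hspb8 had log2 fold changes of -0.08, 0.21 and 0.15 and did not pass. Hspb2 overlaps Cryab, another small heat shock protein gene, on the opposite strand, and whether the counting used strand is not given in the sources used here.

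Of the 11 DnaJ genes that passed at 6 weeks, 5 belong to the ER. Dnajc3, an ER protein that works with BiP, stood at 26.4, 23.9, 22.2, 23.6 and 17.9 TPM in CAC and at 16.03, 14.87, 16.01, 16.85 and 17.02 TPM in Con, with no overlap (0.46, SE 0.10, adjusted p = 0.00747). Dnajc5, the cysteine string protein of secretory and synaptic vesicles, was at 39.6, 35.2, 36.0, 36.6 and 29.1 TPM in CAC and at 27.8, 22.4, 27.3, 26.9 and 25.2 TPM in Con, with no overlap (0.43, SE 0.09, adjusted p = 0.00867). Dnajc2, which assists nascent chains at the ribosome, rose by 0.46 (SE 0.11, adjusted p = 0.0109) and Dnajc1, an ER membrane protein, by 0.55 (SE 0.14, adjusted p = 0.0184), both without overlap. Dnajb6, a suppressor of aggregation whose human mutations cause a limb-girdle muscular dystrophy, was at 65.5, 46.9, 50.8, 55.4 and 43.9 TPM in CAC and at 43.2, 42.0, 41.5, 41.6 and 39.6 TPM in Con. The lowest CAC library lay just above the highest Con library (0.32, SE 0.10, adjusted p = 0.0373). The ER membrane protein Dnajb12 (0.39), the ER co-chaperone Dnajb11 (0.36) and the cytosolic Dnajb4 (0.38) rose too, and Dnajb9, an ER co-chaperone of BiP, had 0.26 (SE 0.12, adjusted p = 0.106). Dnajb1, Dnajb2 and Dnajb5 and the A-class genes Dnaja1, Dnaja2 and Dnaja4 had log2 fold changes between -0.21 and 0.31 and did not pass. The remaining calls were Dnajc10, Dnajc13 and Dnajc21, at 0.29, 0.29 and 0.31.

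By compartment, 5 of 10 ER members were higher at 6 weeks and none lower, against 21.8% and 3.87% of all tested genes. No mitochondrial member was higher and 1 of 10, Hspd1, was lower. Of the heat-inducible list 3 of 10 were higher: Hspa1a, Dnajb4 and the constitutive Hspa8. The lists were set by hand and may miss members. For the ER they held Hspa5, Hspa13, Hsp90b1, Dnajb9, Dnajb11, Dnajb12, Dnajb14, Dnajc1, Dnajc3 and Dnajc10. For the mitochondrion they held Hspa9, Hspd1, Hspe1, Dnaja3, Dnajc4, Dnajc11, Dnajc15, Dnajc19, Dnajc28 and Dnajc30. Hspd1, the chaperonin ring, averaged 178 ± 17.9 TPM in CAC and 209 ± 9.13 TPM in Con (SD, n = 5 each; -0.24, SE 0.08, adjusted p = 0.0496), and its lid Hspe1 75.6 ± 8.74 TPM in CAC and 77.0 ± 3.30 TPM in Con. These counts depend on how libraries are scaled. Median-of-ratios rescaling, which sets the median gene level between libraries, left 5 members higher and 6 lower, with a median of 0.02 over the members. Of all 13529 tested genes 1417 were then higher and 1355 lower. Hspb7, Hspa2, Dnajc2, Dnajc3 and Dnajc5 were then still higher and Hspb3 and Hspd1 lower. Rescaled, 1 ER member was higher, 4 mitochondrial members were lower and no member of the heat-inducible list passed. Transcripts of the mitochondrial genome, which weigh on every TPM, summed to 277721 to 399600 TPM in CAC and to 381060 to 408763 TPM in Con. The calls for Dnajc1, Dnajc2, Dnajc3, Dnajc5, Hspa1l, Hspa2 and Hspb7 held without any 1 library. Without the filter on low values Hspb7, Dnajc1 and Hspa1l lost theirs (adjusted p = 0.0602, 0.0564 and 0.0565), and Hspa2 did in a limma fit over all 12 groups (0.0571). That fit also lost the calls of Hspa1a (0.111), Dnajb4 (0.162), Hspb3 (0.162) and Hspd1 (0.146). It left 18 members higher and 0 lower, against 2941 higher and 328 lower of all tested genes. Dnajb6 and Hspd1 lost theirs without CAC replicate 1 or 4 or any Con library (adjusted p up to 0.0826 and 0.110), Dnajb11 and Dnajb12 without any library other than CAC replicate 3 or 5 (up to 0.101 and 0.0820), and Dnajb4 without CAC replicate 1 or 2 or Con replicate 3, 4 or 5 (up to 0.0683). Dnajc10, Dnajc13 and Dnajc21, named to complete the count, lost theirs without most single libraries (up to 0.102 in Dnajc10). The number of members called was 7, 10, 19, 9 and 30 without CAC replicates 1 to 5 in turn. It was 10, 11, 8, 7 and 8 without Con replicates 1 to 5. All tested genes moved as well, with 1936 called without CAC replicate 1 and 5655 without CAC replicate 5. Without a Con library 2073 to 2827 of them were called.

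**Figure D1:**
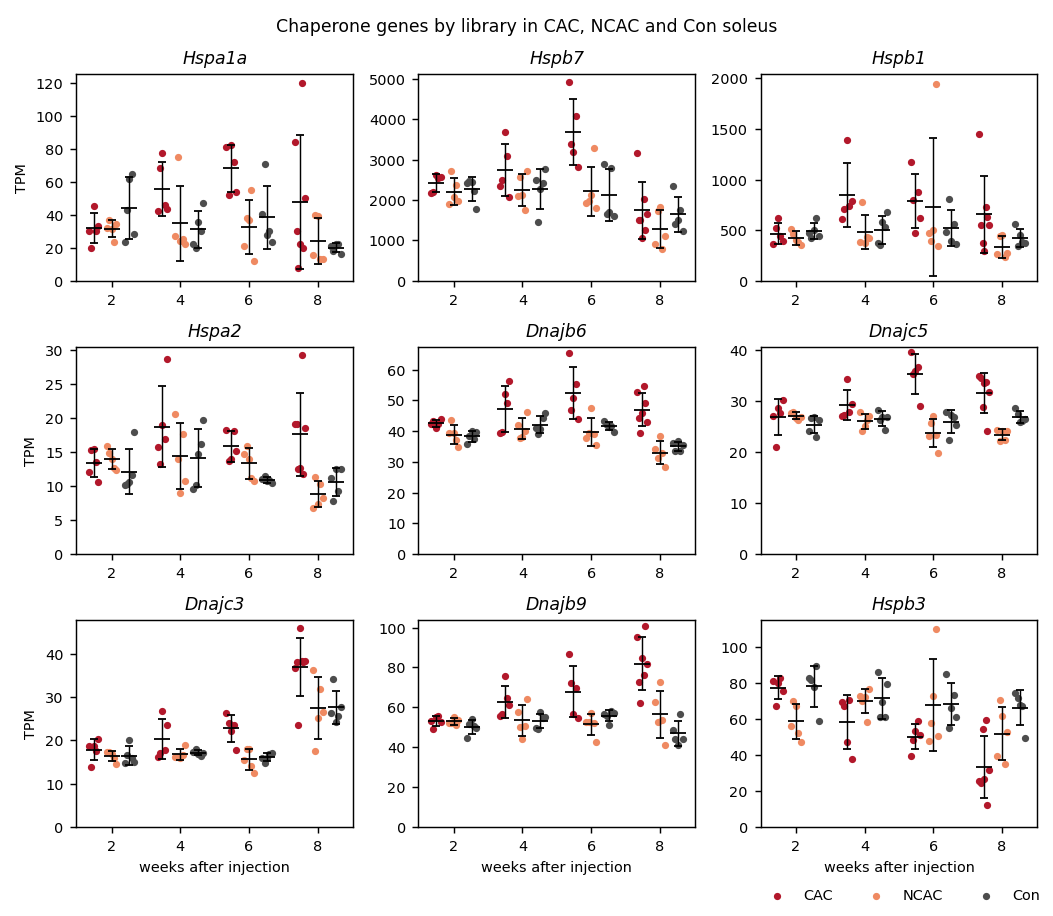
TPM of 9 chaperone genes (y axis, linear from 0) by weeks after injection (x axis) in CAC, NCAC and Con soleus, 1 point a library, with bars at the group mean and 1 SD. At 6 weeks Hspb7 reached 2832 to 4919 TPM in CAC and 1617 to 2885 TPM in Con, and at 8 weeks every CAC library lay above every Con library for Dnajb9 and Dnajb6.

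Markers of other cells moved with the same contrast. At 6 weeks 6 of 8 macrophage markers were higher in CAC than in Con, with a summed level of 116 to 144 TPM in CAC and 60.0 to 82.8 TPM in Con. Of the adipocyte markers 4 of 6 were higher (1782 to 3083 TPM in CAC, 1097 to 1274 TPM in Con), as were the 3 tested of 4 neutrophil markers (13.1 to 26.04 TPM in CAC, 4.93 to 12.3 TPM in Con), and 3 of 6 tendon markers were lower (244 to 493 TPM in CAC, 296 to 679 TPM in Con). Of 8 immediate early genes, which also respond to handling of the tissue, 1 was higher (221 to 378 TPM in CAC, 196 to 306 TPM in Con). The Con library with the highest Hspa1a, replicate 2, also had 122.7 TPM of the immediate early gene Atf3, against 6.17 to 53.4 TPM in the other 4. The part of these markers in the chaperone values was not tested.

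Against the non-cachectic tumour at 6 weeks, 11 members were higher in CAC and none lower, 17.5% of the 63 against 22.2% of all tested genes. Hspa1a was at 21.3, 37.9, 36.6, 54.7 and 12.2 TPM in NCAC, with the CAC values above; 1 NCAC library lay within the CAC range (1.18, SE 0.31, adjusted p = 0.0201), and the call was lost without CAC replicate 1 (adjusted p = 0.0527). Hspb7 was higher by 0.74 (SE 0.18, adjusted p = 0.0142), with NCAC at 1922, 1968, 2128, 3291 and 1799 TPM, of which replicate 4 alone reached into the CAC range. Dnajc5 was at 23.1, 25.6, 27.0, 23.3 and 19.8 TPM in NCAC, below every CAC library (0.55, SE 0.11, adjusted p = 0.00451), and Dnajc3 was higher by 0.52 (SE 0.13, adjusted p = 0.0140). Dnajc1 (0.50), Dnajb12 (0.42), Dnajb11 (0.39), Dnajb6 (0.38), Dnajc2 (0.38), Dnajc7, which can hold HSP70 and HSP90 at once (0.35), and Dnajc21 (0.32) made up the rest. Dnajc3, Dnajc5 and Hspb7 held without any 1 library, and Hspb7 lost its call without the filter on low values (adjusted p = 0.0626), as did the others except Dnajc3 and Dnajc5. Rescaled, 3 members were higher, namely Dnajc3, Dnajc5 and Hspa1a, and 4 lower, against 1584 higher and 1470 lower of the 13529 tested genes. The count was 3, 5, 12, 4 and 21 without CAC replicates 1 to 5 in turn and 4, 5, 10, 8 and 6 without NCAC replicates 1 to 5. Over all tested genes it ran from 1641 to 4518 without a CAC library and from 1913 to 2798 without an NCAC library. The CAC libraries are shared between this comparison and that with Con. In CAC against NCAC 4 of 8 macrophage markers were higher (116 to 144 TPM summed in CAC, 29.5 to 112 TPM in NCAC), as were 4 of 6 adipocyte, the 3 tested of 4 neutrophil and 2 of 8 immediate early markers, and 2 of 3 erythroid markers were lower. Their part in the chaperone values was not tested.

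NCAC replicate 4 at 6 weeks stood out for the small heat shock proteins. It had 1947 TPM of Hspb1, against 347 to 497 TPM in the other NCAC libraries, 54.1 TPM of Hspa1b, against 7.10 to 29.6 TPM, and 110 TPM of Hspb3, against 48.0 to 72.7 TPM. Atf3 was at 144 TPM in the same library and at 3.68 to 23.8 TPM in the others. Without this library and the NCAC library with high Myh4, replicate 3, the number of members past the threshold for CAC against NCAC at 6 weeks was 9, all higher. Of the 13529 tested genes 1384 were then higher and 287 lower. This alternative was added after the data were seen. NCAC against Con gave no member at any week by limma: 0.00739% of all tested genes passed at 6 weeks and 0.0% at 8 weeks. An unadjusted p under 0.05 was found for 3 and 9 of the 63 members, against 380 and 2101 of the 13529 tested genes.

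**Figure D2:**
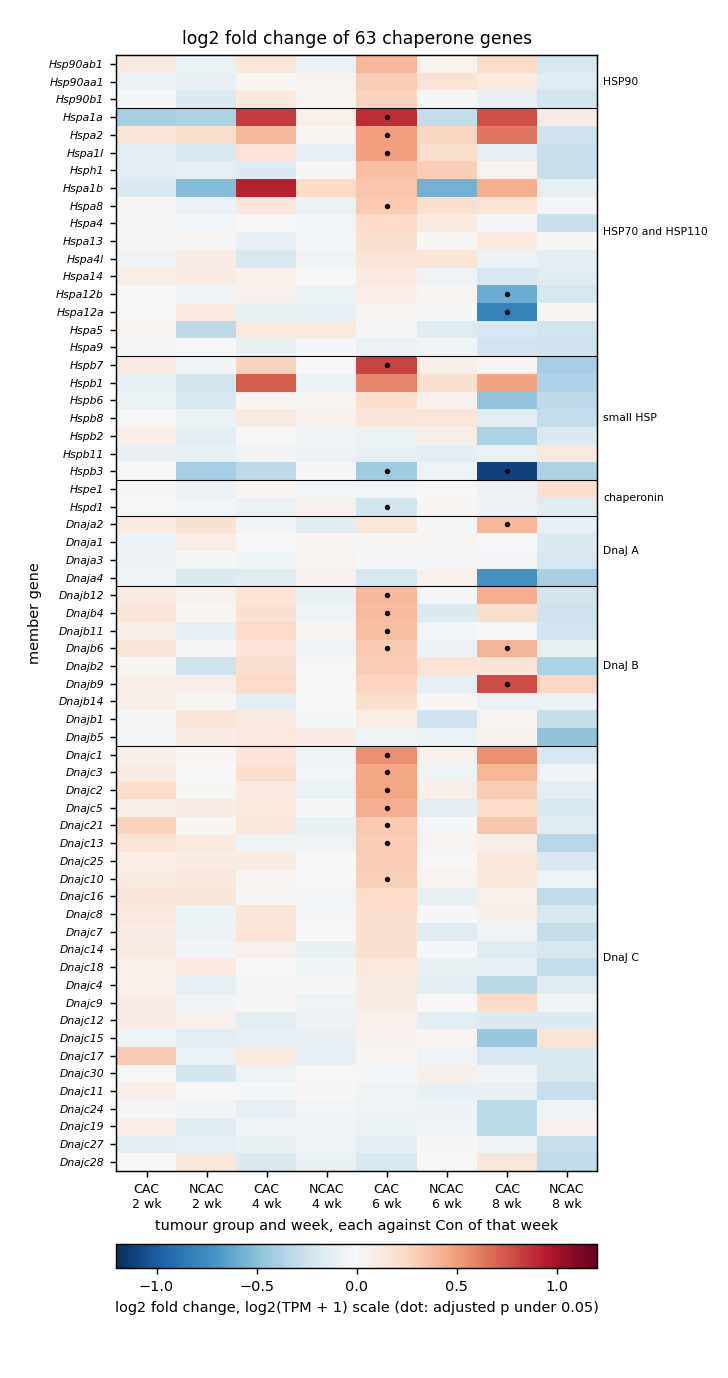
Log2 fold change of the 63 tested chaperone genes (rows, by class) in CAC and NCAC against Con of the same week (columns), from blue (lower) to red (higher); a dot marks an adjusted p under 0.05. Dots stand in CAC at 6 weeks (16 higher, 2 lower) and at 8 weeks (3 higher, 3 lower) and in no NCAC column.

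At 8 weeks, 3 members were higher and 3 lower in CAC than in Con, 9.52% of the 63 against 12.4% of all tested genes. The higher genes were the DnaJ proteins Dnajb9, Dnajb6 and Dnaja2, and the lower ones were Hspb3 and the distant HSP70 relatives Hspa12a and Hspa12b. The median log2 fold change was -0.01 over the members and 0.00 over all tested genes. Dnajb9, which binds BiP in the ER and is a target of the unfolded protein response, stood at 95.1, 72.8, 62.4, 84.9, 76.2, 101 and 81.6 TPM in CAC and at 48.9, 44.0, 41.2, 56.8 and 44.0 TPM in Con. Every CAC library lay above every Con library (0.78, SE 0.13, adjusted p = 0.00333). NCAC averaged 56.5 ± 11.8 TPM (SD, n = 5). Dnajb6 was at 52.7, 44.2, 39.4, 46.0, 54.7, 49.1 and 42.8 TPM in CAC and at 36.1, 33.6, 36.7, 33.7 and 35.4 TPM in Con. These groups did not overlap either (0.40, SE 0.09, adjusted p = 0.0166). Dnaja2, a cytosolic partner of Hspa8, rose by 0.40 (SE 0.11, adjusted p = 0.0318), at 138 ± 16.8 TPM in CAC (n = 7) and 104 ± 8.83 TPM in Con (n = 5).

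Hspb3 at 8 weeks stood at 25.3, 24.2, 54.3, 26.9, 59.5, 12.3 and 31.7 TPM in CAC and at 74.4, 71.8, 67.8, 67.3 and 49.6 TPM in Con. CAC replicates 3 and 5 lay within the Con range and the other CAC libraries below it (-1.11, SE 0.31, adjusted p = 0.0338). The lowest was CAC replicate 6, the library with 2040 TPM of Myh4, and slow fibre markers summed to 13510 to 32124 TPM in CAC and 24544 to 29645 TPM in Con, 2 of the 6 passing as lower. Hspa12a was at 2.69, 5.05, 6.16, 6.68, 4.71, 2.43 and 5.32 TPM in CAC and at 6.13, 14.05, 8.44, 6.44 and 10.2 TPM in Con, with 2 CAC libraries inside the Con range (-0.81, SE 0.24, adjusted p = 0.0413). Hspa12b, best known from blood vessel endothelium, was at 10.47, 11.2, 12.3, 11.96, 11.9, 7.65 and 9.21 TPM in CAC and at 13.0, 20.5, 18.0, 15.2 and 16.7 TPM in Con, with no overlap (-0.60, SE 0.13, adjusted p = 0.0139). Of 4 endothelial markers 1 was higher and 1 lower, and their sum was 114 to 208 TPM in CAC and 113 to 156 TPM in Con. Of the tendon markers 4 of 6 were lower (175 to 386 TPM summed in CAC, 224 to 711 TPM in Con), and 2 of 8 immediate early genes were higher (239.6 to 599 TPM in CAC, 199.5 to 313 TPM in Con). The part of these markers in the values was not tested.

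The calls of Dnajb6, Dnajb9 and Hspa12b held without any 1 library, while the others did not. Dnaja2 lost its call without CAC replicate 1, 2, 4 or 5 or any Con library (adjusted p up to 0.0769), Hspb3 without CAC replicate 1, 2, 4 or 7 or Con replicate 1, 2, 3 or 4 (up to 0.0727), and Hspa12a without CAC replicate 1, 2, 5, 6 or 7 or Con replicate 2, 3 or 5 (up to 0.103). Without the filter on low values Hspb3 and Hspa12a lost theirs too (0.0752 and 0.0855). Rescaled, 3 members were higher and 5 lower, against 934 higher and 1172 lower of the 13529 tested genes. The count was 4, 3, 13, 4, 5, 9 and 4 without CAC replicates 1 to 7 in turn and 4, 3, 3, 4 and 4 without Con replicates 1 to 5. Over all tested genes it ran from 1078 to 2374 without a CAC library and from 988 to 1174 without a Con library. The 10 members of the heat-inducible list, Hspa8 among them, had a median log2 fold change of 0.14 in CAC against Con at 8 weeks, and none passed. Hspa1a was at 83.9, 30.1, 7.50, 22.4, 119.6, 20.04 and 50.2 TPM in CAC and at 21.0, 17.8, 22.3, 22.3 and 16.3 TPM in Con (0.76, SE 0.52, adjusted p = 0.365). In CAC 5 of the 7 libraries lay above every Con library, 1 of them barely. The CAC libraries held both the highest and the lowest Hspa1a value of the 62. Hspb1 reached 1449 TPM in CAC replicate 1 and 296 to 730 TPM in the other 6, against 342 to 558 TPM in Con (0.49, SE 0.31, adjusted p = 0.335). Dnaja4, a muscle-rich partner of HSP70, averaged 65.9 ± 21.9 TPM in CAC (n = 7) and 106 ± 20.5 TPM in Con (n = 5) and did not pass (-0.73, SE 0.23, adjusted p = 0.0506). Dnajc3 averaged 37.0 ± 6.68 TPM in CAC (n = 7) and 27.6 ± 3.85 TPM in Con (n = 5; 0.40, SE 0.14, adjusted p = 0.0870), and Hspa2 did not pass against Con either (0.63, SE 0.21, adjusted p = 0.0614). The HSP90 genes, Hspa5, Hspa8, Hspa9, Hspd1, Hspe1 and Hspb7 had log2 fold changes between -0.23 and 0.22.

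Against NCAC at 8 weeks, 8 members were higher in CAC and none lower, 12.7% of the 63 against 11.8% of all tested genes. Hspa2 was at 19.2, 19.1, 12.6, 12.7, 29.3, 11.8 and 18.6 TPM in CAC and at 6.82, 11.4, 7.36, 10.3 and 8.30 TPM in NCAC, with no overlap (0.88, SE 0.21, adjusted p = 0.0239). Dnajb12 was at 48.0, 34.6, 27.3, 29.4, 26.6, 33.7 and 28.1 TPM in CAC and at 18.9, 20.4, 21.3, 17.3 and 22.0 TPM in NCAC, again apart (0.65, SE 0.14, adjusted p = 0.0177). Dnajc1 (0.76), Dnajb9 (0.54), Dnajb6 (0.49), Dnaja2 (0.49), Dnajc21 (0.48), which acts in ribosome assembly, and Dnajc5 (0.41) were the others. Of the immediate early genes 4 of 8 were higher (239.6 to 599 TPM summed in CAC, 136 to 238 TPM in NCAC) and 2 of 6 tendon markers lower (175 to 386 TPM in CAC, 146 to 630.0 TPM in NCAC), and their part was not tested. None of the 8 calls held without every library in turn. Rescaled, 0 members were higher and 3 lower, against 289 higher and 316 lower of the 13529 tested genes. The count was 5, 2, 11, 5, 5, 17 and 6 without CAC replicates 1 to 7 in turn and 6, 7, 5, 1 and 3 without NCAC replicates 1 to 5. Over all tested genes it ran from 611 to 3041 without a CAC library and from 474 to 1226 without an NCAC library. Without CAC replicate 6 (high Myh4) and NCAC replicate 2, the count of members was 14 higher and 5 lower. Of the 13529 tested genes 2409 were then higher and 475 lower. This alternative was added after the data were seen.

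Whether the CAC effect differed between 8 and 6 weeks was tested directly. No member passed by limma for the difference of the CAC minus Con change, against 0.192% of all tested genes. An unadjusted p under 0.05 was found for 11 of the 63 members, against 1896 of the 13529 tested genes. So the calls that appear at only 1 of the weeks, such as Hspb7 at 6 weeks or Dnajb9 at 8 weeks, were not shown to differ between them.

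Mock-injected muscle at 8 and 6 weeks was compared to see how the members differ without a tumour. Of the 63 members 22 were higher and 19 lower at 8 weeks, 65.1% of them against 63.7% of all tested genes. By direction 34.9% of the members and 54.1% of all tested genes were higher, and 30.2% and 9.65% lower. The median log2 fold change was -0.05 over the members and 0.29 over all tested genes. Rescaled to a common median, 9 members were higher and 37 lower, with a median of -0.42, so the direction of the weaker rises depends on the scaling. Of all 13529 tested genes 4299 were then higher and 4301 lower, with a median of -0.02. The ER members were higher in 7 of 10 cases and lower in 1 (3 and 2 rescaled), and the mitochondrial members higher in 4 and lower in 5 (1 and 6 rescaled).

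Dnajc15, a mitochondrial inner membrane protein that restrains respiratory complex I, had the highest fold change. It stood at 183, 376, 274, 217 and 283 TPM in Con at 8 weeks and at 107, 103, 105, 95.4 and 101 TPM in Con at 6 weeks, far apart (1.33, SE 0.16, adjusted p = 4.1e-05). Hspa12a was at 6.13 to 14.05 TPM at 8 weeks and 2.73 to 3.68 TPM at 6 weeks (1.25, SE 0.18, adjusted p = 1.61e-04), and Hspb11, an intraflagellar transport protein that carries a small heat shock name, at 8.65 ± 1.80 TPM at 8 weeks and 4.07 ± 0.70 TPM at 6 weeks (SD, n = 5 each; 0.92, SE 0.14, adjusted p = 1.98e-04). Dnajb1, the inducible partner of HSP70, rose by 0.88 (SE 0.15, adjusted p = 4.61e-04), Hsp90b1, the ER HSP90, by 0.73 (SE 0.12, adjusted p = 2.63e-04), Dnajc3 by 0.73 (SE 0.09, adjusted p = 4.51e-05), Dnaja1 by 0.69 and Hsp90aa1, the inducible HSP90, by 0.57. All of these were higher when rescaled too, except Hsp90aa1, whose call was then lost.

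Among the falls, Hspa1a was at 21.0, 17.8, 22.3, 22.3 and 16.3 TPM at 8 weeks and at 40.4, 70.7, 28.0, 30.2 and 23.5 TPM at 6 weeks, with no overlap (-0.82, SE 0.25, adjusted p = 0.0131). Dnajc21 fell by 0.62 (SE 0.08, adjusted p = 5.82e-05) and Dnajb5 by 0.59 (SE 0.16, adjusted p = 0.00771). Hspa9 was at 278, 213, 283, 269 and 247 TPM at 8 weeks and at 383, 357, 365, 353 and 402 TPM at 6 weeks, every 8-week library below every 6-week one (-0.53, SE 0.09, adjusted p = 3.82e-04). Dnaja4, Hspb6, Hsp90ab1, Dnajb4, Dnaja2, Hspa4, Dnajb9 and Dnajb6 fell as well, by 0.57 to 0.24 on the log2 scale. Hspb1, Hspb2, Hspb3, Hspb7, Hspb8, Hspa2, Hspa5, Hspa8, Hspa1b, Hsph1 and Dnajb2 did not pass, and all of these except Hspa5 were lower when rescaled. The calls of 36 of the 41 genes held without any 1 library. A length was set for each gene as the median over all its annotated transcripts, short ones included. By this measure the 22 higher members had a median of 870 bases and the 19 lower ones 1483 bases. Over all tested genes the medians were 1314 bases for higher and 1669 bases for lower genes. Such a length, 599 bases for Hsp90aa1, need not be that of the mRNA measured, so no difference in mRNA length is drawn from it. Markers of macrophages (8 of 8), adipocytes (6 of 6), fibro-adipogenic progenitors (5 of 6), neutrophils (the 3 tested of 4) and erythroid cells (2 of 3) were higher at 8 weeks too. Lower were 3 of 4 smooth muscle and pericyte markers, 2 of 6 slow fibre markers and 6 of 13 tested transcripts of the mitochondrial genome. These last, which weigh on every TPM, summed to 208709 to 358288 TPM at 8 weeks and 381060 to 408763 TPM at 6 weeks. The part of these markers and transcripts in the chaperone values was not tested.

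**Figure D3:**
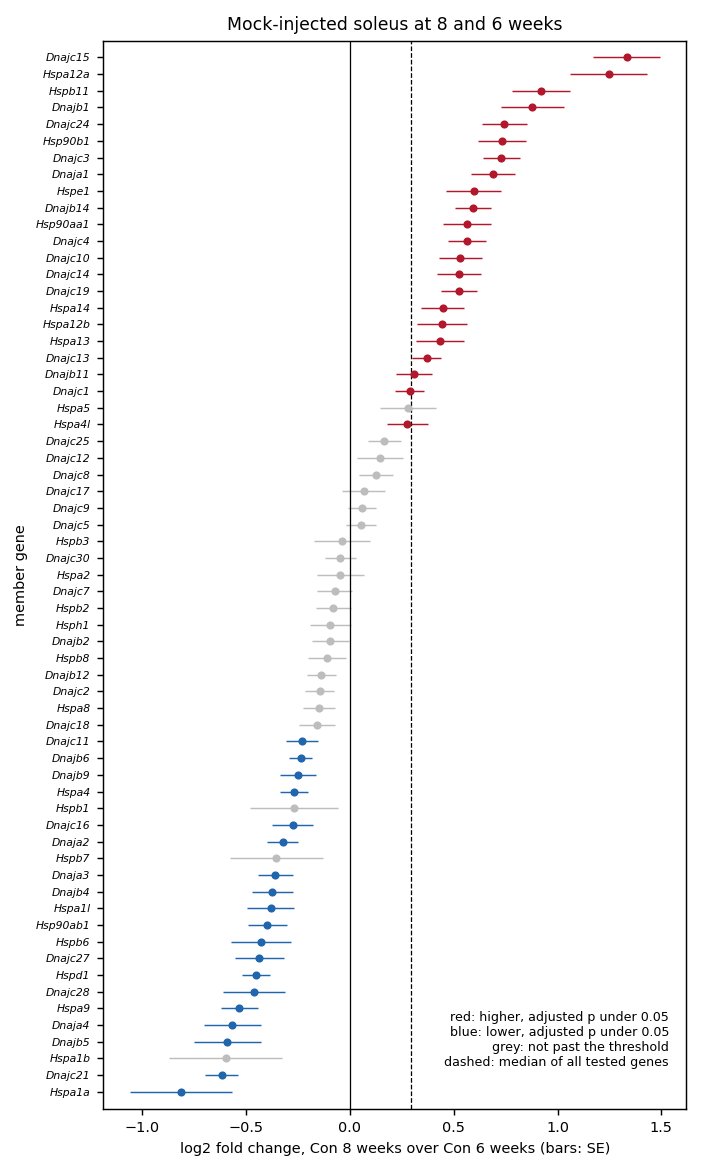
Log2 fold change (x axis) of the 63 tested chaperone genes (y axis) in mock-injected soleus, 8 weeks over 6 weeks, with bars of 1 SE; red and blue mark adjusted p under 0.05 and the dashed line the median of all tested genes, 0.29. Dnajc15 stands highest at 1.33 and Hspa1a lowest at -0.82.

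The chaperonin pair came apart in the 8-week libraries. Hspd1 was at 155, 137, 161, 151 and 161 TPM in Con at 8 weeks and at 193, 213, 212, 212 and 216 TPM at 6 weeks (-0.45, SE 0.07, adjusted p = 1.87e-04). Hspe1 was at 92.0, 161, 119, 98.9 and 125 TPM in Con at 8 weeks and at 71.9, 76.1, 80.8, 77.9 and 78.4 TPM at 6 weeks (0.60, SE 0.13, adjusted p = 0.00213). Both moved beyond the range of the other week, in opposite directions, and the rise of Hspe1 lost its call when rescaled. The ratio of Hspe1 to Hspd1 in TPM averaged 0.79 ± 0.23 in Con at 8 weeks and 0.37 ± 0.01 in Con at 6 weeks (SD, n = 5 each). In CAC it averaged 0.83 ± 0.42 at 8 weeks (SD, n = 7) and in NCAC 1.02 ± 0.28 (SD, n = 5), and in the 9 groups of the earlier weeks the mean lay between 0.36 and 0.43. The genes lie head to head on chromosome 1 and overlap by 112 bases, and their promoter windows overlap by 285 bases, so the cores printed for Hspe1 above lie in the window of both. The sources used here do not say whether reads of the shared bases were split by strand.

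**Figure D4:**
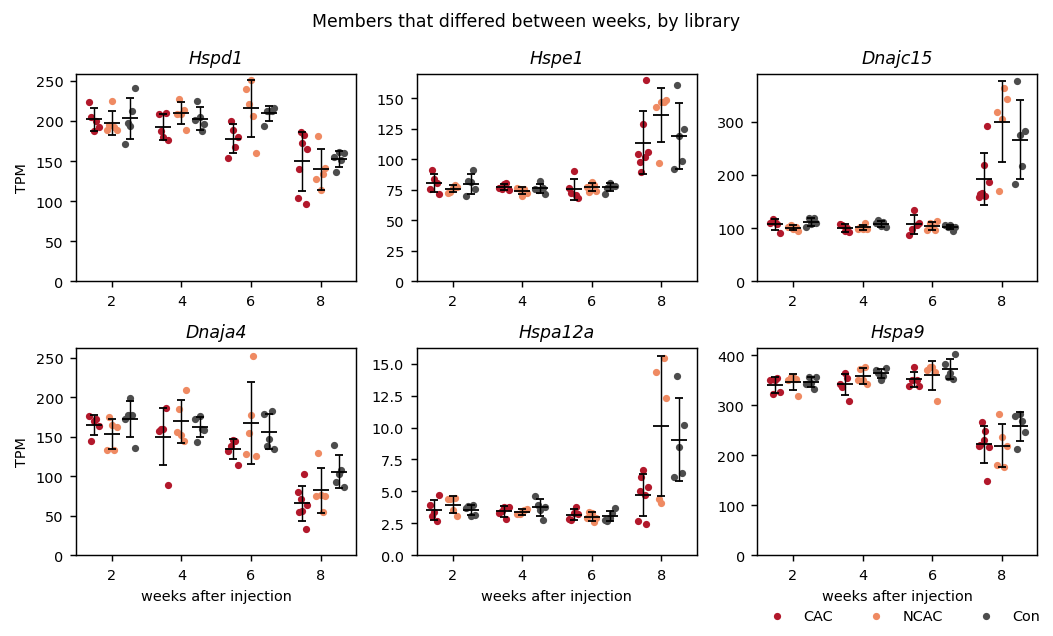
TPM of 6 members (y axis, linear from 0) by weeks after injection (x axis) in CAC, NCAC and Con soleus, 1 point a library, with bars at the group mean and 1 SD. In all treatments Hspe1 and Dnajc15 were higher and Hspd1, Dnaja4 and Hspa9 lower on average at 8 weeks than at the earlier weeks.

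Promoters with and without a heat shock core can be set beside these values. Of the 51 tested members with a promoter window, 15 held a core. In CAC against Con at 6 weeks 4 of these 15 were higher and 2 lower (median log2 fold change 0.21). Of the 36 without a core 9 were higher and none lower (median 0.20). Over all tested genes 21.8% were higher and 3.87% lower (median 0.16). In Con at 8 against 6 weeks 3 of the 15 were higher and 7 lower (median -0.27), and 17 of the 36 were higher and 9 lower (median 0.22). Over all tested genes 54.1% were higher and 9.65% lower (median 0.29). Rescaling left 9 of the 63 members higher and 37 lower in this comparison, and the split by core was not made on rescaled values. At 6 weeks the 4 higher members with a core were Hspa1a, Dnajb4, Dnajb6 and Dnajc10, and the 2 lower ones Hspb3 and Hspd1. Hspb7, with none of the searched motifs in its window, rose too, and Hspb1, with a pair of cores, did not pass. The part of these motifs in the values was not tested.

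The partners of the chaperones were read from a list of 51 heat shock factors, co-chaperones, TRiC subunits and ER folding and stress genes, all of them tested. In CAC against Con at 6 weeks 9 were higher and 1 lower, and at 8 weeks 4 were higher and 1 lower, against 25.7% and 12.4% of all tested genes called in either direction. Fkbp5, an HSP90 co-chaperone and a direct target of the glucocorticoid receptor, was at 164, 52.7, 61.9, 92.2 and 55.0 TPM in CAC and at 12.5, 13.2, 16.4, 19.4 and 10.49 TPM in Con at 6 weeks, far apart (2.37, SE 0.28, adjusted p = 1.5e-04). At 8 weeks it was at 25.3 to 172 TPM in CAC, with a median of 119, and at 9.97 to 30.1 TPM in Con, with a median of 14.6 (2.60, SE 0.40, adjusted p = 0.00276). Cryab, the alpha-B crystallin that partners Hspb1, averaged 4515 ± 481 TPM in CAC and 3202 ± 590 TPM in Con at 6 weeks (SD, n = 5 each; 0.51, SE 0.13, adjusted p = 0.0181). The ER lectin chaperone Canx (0.45) and the ER stress factor Xbp1 (0.44) were higher at 6 weeks. At 8 weeks the muscle-expressed heat shock factor Hsf4 (0.60) and the HSP90 co-chaperones Ptges3 (0.57) and Ppid (0.32) were higher in CAC than in Con, and Ddit3, an ER stress factor that promotes cell death, was lower (-0.91, SE 0.17, adjusted p = 0.0052).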

How the data were processed

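Libraries of soleus RNA from 62 mice were made with the TruSeq stranded mRNA kit, per the labels' protocols, and grouped by the labels. The authors deposited expression values in TPM, made on the mm10 build, per the submitters' processing notes. Which aligner, quantification tool and strand setting they used is not stated in the labels. TPM holds no read number, so neither intervals nor floors were computed.

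Values were transformed to log2(TPM + 1), with a pseudocount of 1. Genes with at least 1 TPM in at least 5 libraries (13529 of 47643) were fitted with limma 3.58.1 (R 4.3.3, intensity trend), with only the compared groups in each fit, Benjamini-Hochberg adjustment over all tested genes and a threshold of 0.05. There were 14 comparisons. The members, classes, partner and marker lists, the rule for named genes and the tests were chosen with earlier results of these data known. Named were a panel of 30 members whatever their result, the 10 largest rises and falls past the threshold with a group mean of at least 5 TPM in CAC against Con at 4, 6 and 8 weeks and against NCAC at 6 and 8 weeks, and the 3 largest in the others. Partners past the threshold were named, up to 4 in a direction. One partner that the rule names is not reported here. GENCODE M21 gave positions on mm10 for 72 of 72 members.

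The fit was tested on simulated data of 13529 genes with 200 altered. It recovered 86% to 93% of log2 changes of 1 at 2, 4 and 6 weeks. At 8 weeks it recovered 75% for CAC against Con, 61% for CAC against NCAC and 68% for NCAC against Con. Of log2 changes of 0.5 it recovered 42% to 66% at the earlier weeks, 28%, 16% and 18% for the same comparisons at 8 weeks, and 12% for the difference of the CAC effect. False calls numbered 4 to 19 over the 14 comparisons. The noise was drawn for each gene on its own, with each group's own spread and without shifts shared by the genes of a library. These rates therefore do not cover such shared shifts. Alternatives tried were the pseudocount 0.1, testing without the filter, rescaling by median of ratios, 1 fit for all 12 groups, a block for the replicate number, and each library left out in turn. Figures were drawn with matplotlib 3.10.9.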

Additional observations from a re-analysis of the deposited data

Results flagged for a closer look

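In groups of 5 or 7 libraries, a library was marked where its gap to the nearest other exceeded the 95% critical value of Dixon's test, which chance gives in about 1 of 20 sets. Of 216 sets (18 members in 12 groups) 18 were marked, and no explanation was tested.

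Hspb1 gave 4 of them. The highest library was CAC replicate 2 at 4 weeks with 1393 TPM (next 783 TPM), NCAC replicate 2 at 4 weeks with 778 TPM (next 436 TPM), NCAC replicate 4 at 6 weeks with 1947 TPM (next 497 TPM) and CAC replicate 1 at 8 weeks with 1449 TPM (next 730 TPM). The same NCAC library of week 6 had 3291 TPM of Hspb7 (next 2128 TPM), and the same NCAC library of week 4 had 75.2 TPM of Hspa1a (next 27.0 TPM). CAC replicate 1 at 4 weeks had 61.7 TPM of Hspa1b (next 37.5 TPM). CAC replicate 1 at 8 weeks also had 48.0 TPM of Dnajb12 (next 34.6 TPM), and CAC replicate 3 at 2 weeks had 28.3 TPM of it (next 26.9 TPM).

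NCAC replicate 2 at 8 weeks had the highest Dnaja4 of its group, 130 TPM (next 76.7 TPM), and the lowest Hspe1, 97.2 TPM (next 143 TPM). For Hspa2 the highest were CAC replicate 5 at 8 weeks with 29.3 TPM (next 19.2 TPM) and Con replicate 5 at 2 weeks with 17.9 TPM (next 11.6 TPM). For Dnajc3 the lowest was CAC replicate 3 at 8 weeks with 23.6 TPM (next 36.6 TPM) and the highest NCAC replicate 5 at 4 weeks with 18.9 TPM (next 16.6 TPM). For Hspd1 the highest was NCAC replicate 3 at 2 weeks with 225 TPM (next 195 TPM) and the lowest Con replicate 1 at 6 weeks with 193 TPM (next 212 TPM). For Hspb3 the lowest was Con replicate 5 at 8 weeks with 49.6 TPM (next 67.3 TPM).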

How the results depend on the processing

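The direction of 84 of 84 calls of a member in a comparison was unchanged with a pseudocount of 0.1, without the filter, in the fit over all 12 groups and with the replicate block. Rescaling turned 3 rises in Con at 8 against 6 weeks: Dnajc1 to -0.0295, Hspa4l to -8.66e-04 and Dnajb11 to -0.0648. Of these 84 calls, 0 were lost with the pseudocount, 27 without the filter, 11 in the fit over all groups, 19 with the block and 38 when rescaled, besides the 3 that turned. The count of members past the threshold moved by over 1.5 times as follows. Without the filter it was 4 for CAC against Con and 2 for CAC against NCAC at 6 weeks, of 70 members, against 2210 and 1855 of 23915 genes. Rescaled it was 11 and 7 for those and 3 for CAC against NCAC at 8 weeks, against 2772, 3054 and 605 of 13529 tested genes. In the fit over all 12 groups it was 17 for CAC against NCAC at 6 weeks, and at 8 weeks 23 for CAC against Con and 32 for CAC against NCAC. Of all tested genes 3760, 4206 and 5837 passed there. With the replicate block it was 1 for CAC against NCAC at 4 weeks, and at 8 weeks 1 for CAC against Con and 2 for CAC against NCAC. Of all tested genes 34, 743 and 1060 passed with the block. Same-numbered libraries correlated in their deviations from the group mean between -0.67 and 0.48, and in no comparison were all above 0.1, so the numbers were not taken to pair libraries. Without CAC replicate 6 and NCAC replicate 2 together the count of members was 19 for CAC against NCAC at 8 weeks, against 2884 of all tested genes. Leaving out 1 library gave 7 to 30 for CAC against Con and 3 to 21 for CAC against NCAC at 6 weeks, 3 to 13 and 1 to 17 for those at 8 weeks, 37 to 41 for Con at 8 against 6 weeks, 0 to 1 for CAC against NCAC at 2 weeks and for the difference of the CAC effect, and 0 elsewhere. With 1 library left out, 1936 to 5655 and 1641 to 4518 of all 13529 tested genes passed for the same comparisons at 6 weeks. At 8 weeks 988 to 2374 and 474 to 3041 passed, and 8026 to 8611 for Con at 8 against 6 weeks. For CAC against NCAC at 2 weeks it was 1 to 181, and for the difference of the CAC effect 0 to 183. The cause of these moves was not tested. Depth is unknown.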
